A study of Mus musculus with 16 samples.

Results

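The expression of 10 genes for acetylcholine signaling was followed in the cortex of newborn mice at P7: the muscarinic receptors Chrm1, Chrm2, Chrm3 and Chrm4, the nicotinic receptor subunits Chrna3, Chrna4, Chrna5, Chrna7 and Chrnb2, and Lynx1, which encodes a small protein that binds nicotinic receptors. The genes were picked by name, with no threshold on their values, and each was found as 1 of the 36930 entries of the gene table. All 10 passed the filter for low expression that 21183 entries passed.

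Cortices came from 16 C57BL6 pups aged 7 days, 8 per genotype, and mRNA was sequenced. In Avil-ChR2 pups the light-gated cation channel ChR2 is switched on by a Cre recombinase that follows the advillin gene (Avil), a gene expressed mainly by peripheral sensory neurons, and blue light is meant to excite these neurons through the skin, which the sequencing does not measure. ChR2-flfl pups have the floxed ChR2 without Cre. Both genotypes were kept under blue light for 1 h per day from P1 through P5. Hence the comparison is between pups with both Cre and the channel and pups with neither. The samples hold no group without light and no group with Cre alone. According to the study's methods the controls were Cre-negative litter mates, but the labels do not give the litter of a pup. Tissue from the whole cortex was used, so that the RNA of neurons, glia and vessels was measured together, and in such samples fewer cells of a type and less RNA per cell cannot be told apart.

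Acetylcholine reaches the cortex mostly through axons of cholinergic neurons of the basal forebrain. Muscarinic receptors are G protein coupled receptors. Chrm1 and Chrm3 couple to Gq proteins, which activate phospholipase C and close M-type potassium channels, whereas Chrm2 and Chrm4 couple to Gi and Go proteins, which inhibit adenylyl cyclase and open inwardly rectifying potassium channels. Nicotinic receptors are pentameric cation channels. In the cortex, the most common types are built of Chrna4 and Chrnb2 subunits, to which Chrna5 may be added in deep-layer pyramidal cells, or of Chrna7 alone, while Chrna3 is typical of autonomic ganglia and the medial habenula. Lynx1 is a membrane-anchored protein of the Ly6 family that dampens nicotinic receptor responses and restrains plasticity of the maturing cortex.

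Promoter sequences are shown for 3 members that stand for the high and the low end of the levels described further on, and whose upstream window does not touch an annotated exon. Chrnb2 was the nicotinic subunit with the highest level per transcript length, Chrna3 was the member with the lowest, and Chrm4 ranked among the high muscarinic receptors. Each sequence holds the 250 bases before the RefSeq start on GRCm38.p6, 5′ to 3′ on the strand of the gene, with GC boxes (GGGCGG, or CCGCCC on the other strand) in capitals.
Chrm4 (chr2:91921939-91922188, plus strand): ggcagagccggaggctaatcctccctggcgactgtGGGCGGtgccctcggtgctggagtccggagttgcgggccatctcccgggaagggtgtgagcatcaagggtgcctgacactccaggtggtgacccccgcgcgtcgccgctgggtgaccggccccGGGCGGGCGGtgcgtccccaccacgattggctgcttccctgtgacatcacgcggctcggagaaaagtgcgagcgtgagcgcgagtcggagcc
Chrna3 (chr9:55026563-55026812, minus strand): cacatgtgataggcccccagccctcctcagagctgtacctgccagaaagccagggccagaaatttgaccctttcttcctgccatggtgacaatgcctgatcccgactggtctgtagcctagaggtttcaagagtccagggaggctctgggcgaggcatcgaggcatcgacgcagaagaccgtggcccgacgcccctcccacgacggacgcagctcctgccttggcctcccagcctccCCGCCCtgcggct
Chrnb2 (chr3:89764633-89764882, minus strand): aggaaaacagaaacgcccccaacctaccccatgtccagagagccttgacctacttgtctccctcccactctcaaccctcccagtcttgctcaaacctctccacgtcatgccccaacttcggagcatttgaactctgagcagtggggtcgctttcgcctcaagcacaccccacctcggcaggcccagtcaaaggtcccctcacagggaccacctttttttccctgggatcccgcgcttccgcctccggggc
The Chrm4 window held 3 GC boxes, an overlapping pair among them, and 26 CpG dinucleotides at a GC content of 70.0%. The Chrna3 window held 1 box and 13 CpG at 63.2%, and the Chrnb2 window held 0 boxes and 10 CpG at 59.6%. Of all 32851 windows of this length in the RefSeq table, 32.7% held a box on either strand, and the medians were 6 CpG and a GC content of 52.4%. The matches are a description of the letters only. The RefSeq start of Chrm4 lay 2570 bp inside its entry in the gene table. RefSeq windows were at hand for 8 of the 10 members.

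The libraries held 30549126 to 48707429 reads in ChR2-flfl pups, with a median of 48442436, and 47791532 to 48711134 reads in Avil-ChR2 pups, with a median of 48606821. ChR2-flfl replicate 3 was the smallest library, and the next one in that group held 48162598 reads. Levels are given as CPM, the reads of a gene scaled to the size of the library with TMM factors. Avil rose from 1.07 ± 0.199 to 39.7 ± 2.89 CPM (mean ± SD, n = 8 pups per genotype) in Avil-ChR2 pups, and all 8 of them lay above the controls. Slc17a7, the vesicular glutamate transporter of cortical pyramidal neurons, was at 417 to 528 CPM in ChR2-flfl and 458 to 556 CPM in Avil-ChR2 pups. Its log2 difference was 0.115 (SE 0.049, unadjusted limma p = 0.030, adjusted limma p = 0.884, exact permutation p = 0.057). Slc17a7 was the only 1 of 6 listed cortex markers with an unadjusted p under 0.05, and of the 6, 3 were higher and 3 lower in Avil-ChR2 pups. Chat, the enzyme that makes acetylcholine, was at 0.517 to 0.860 CPM over all pups, and Lhx8 and Isl1, further markers of basal forebrain cholinergic neurons, were too low to be tested. The 6 markers of these neurons summed to 2.33 to 3.33 CPM over all pups, the 5 of the medial habenula, Chrna3 among them, to 6.91 to 9.91 CPM in ChR2-flfl (median 8.66) and 8.29 to 11.9 CPM in Avil-ChR2 pups (median 10.1), and the 5 of sensory ganglia to 4.002 to 5.82 CPM in ChR2-flfl and, with Avil among them, 41.6 to 50.7 CPM in Avil-ChR2 pups. Of the habenula markers 4 of 5 were higher in Avil-ChR2 pups, and Tac2, named after its values were seen, was the 1 with an unadjusted p under 0.05, at medians of 3.01 and 4.27 CPM (log2 difference 0.45, SE 0.11, exact permutation p = 0.0028, adjusted limma p = 0.691). Chrnb4 of the same list was at medians of 0.073 and 0.062 CPM. Tac2 (chr10:127724478-127731768) lies near Avil (chr10:127000075-127020994). Whether this position or habenula tissue has a part in the difference of Tac2 was not tested. Ddx3y from the Y chromosome was at 54.7 CPM in Avil-ChR2 replicate 4, which is female in the sample labels and male in the study's supplementary table, while it was at 50.7 to 73.4 CPM in 7 pups that are male in both and at 1.71 to 2.57 CPM in 8 pups that are female in both. The serial numbers of the pups fell into a first run (26 to 33) and a second run (35 to 42), each holding 4 animals per genotype, and genotype differences are also given for each run.

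All 4 muscarinic receptors were read in every pup, with Chrm1 far ahead in CPM. Chrm1 (chr19:8664005-8683606, plus strand), the main muscarinic receptor of cortical pyramidal neurons, was at 101 CPM in the lowest, 108 in the median and 129 in the highest ChR2-flfl pup, and at 109, 112 and 117 CPM in Avil-ChR2 pups. The ChR2-flfl pups held both the lowest and the highest value, and all Avil-ChR2 pups lay within their range. The coefficient of variation was 8.08% in ChR2-flfl and 2.89% in Avil-ChR2 pups, with counting error at 1.40% and 1.35%. The highest value belonged to ChR2-flfl replicate 5.

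Chrm3 (chr13:9875488-10360803, minus strand), the second Gq-coupled member, had lowest, median and highest values of 24.2, 25.6 and 28.4 CPM in ChR2-flfl pups, and 21.5, 26.4 and 29.8 CPM in Avil-ChR2 pups. The Avil-ChR2 pups were spread more widely, with 2 pups above and 1 below the range of the controls. Chrm2 (chr6:36387950-36528638, plus strand), a Gi-coupled member, had 17.3, 19.0 and 21.8 CPM in ChR2-flfl pups and 17.6, 19.3 and 21.6 CPM in Avil-ChR2 pups, so that its ranges nearly coincided. Chrm4 (chr2:91919619-91929835, plus strand), the other Gi-coupled member, had 21.4, 22.8 and 26.3 CPM in ChR2-flfl pups and 22.2, 24.1 and 26.7 CPM in Avil-ChR2 pups, and 1 Avil-ChR2 pup exceeded the controls. In CPM these 3 receptors were close to each other, but their transcripts differ in length, and levels are compared between genes per length only.

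Among the nicotinic subunits, Chrnb2 and Chrna4 were the most abundant. Chrnb2 (chr3:89753448-89764632, minus strand), the obligatory beta subunit of most cortical receptors, was at 68.2, 71.8 and 74.8 CPM in the lowest, median and highest ChR2-flfl pup and at 70.1, 72.3 and 73.9 CPM in Avil-ChR2 pups. It was the steadiest member, with a coefficient of variation of 2.95% in ChR2-flfl and 1.93% in Avil-ChR2 pups, against counting errors of 1.74% and 1.69%. Chrna4 (chr2:181022311-181043580, minus strand), its usual partner, was at 39.1, 47.7 and 52.7 CPM in ChR2-flfl pups and at 36.3, 47.0 and 56.2 CPM in Avil-ChR2 pups. Its coefficient of variation was 9.51% and 12.9%, against counting errors of 2.14% and 2.09%, so that the spread of Chrna4 exceeded the precision of the reads by far.

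Chrna7 (chr7:63098692-63212526, minus strand), which forms calcium-permeable receptors of its own, was at 14.4, 16.6 and 19.9 CPM in ChR2-flfl and at 12.6, 16.3 and 18.8 CPM in Avil-ChR2 pups. Chrna3 (chr9:55011343-55026559, minus strand) and Chrna5 (chr9:54979828-55009231, plus strand) are neighbors on chromosome 9 and were both low. Chrna3 was at 3.78, 5.43 and 6.25 CPM in ChR2-flfl and at 4.45, 5.31 and 6.67 CPM in Avil-ChR2 pups, which corresponds to 175 to 319 reads per pup. Chrna5, an accessory subunit, was at 2.75, 3.32 and 3.96 CPM in ChR2-flfl and at 3.27, 3.53 and 3.89 CPM in Avil-ChR2 pups, or 85 to 192 reads. For Chrna5 in Avil-ChR2 pups the coefficient of variation of 5.96% was below the counting error of 7.59%, so that no difference between these pups was detectable at this depth.

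Lynx1 (chr15:74747856-74752979, minus strand) was at 81.6, 112 and 130 CPM in the lowest, median and highest ChR2-flfl pup and at 95.6, 116 and 137 CPM in Avil-ChR2 pups. It varied by 13.8% and 10.9% between pups, with counting error at 1.40% and 1.32%, and ChR2-flfl replicate 1 had the lowest value. The plot of CPM by pup shows the 10 genes side by side.

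**Figure D1:**
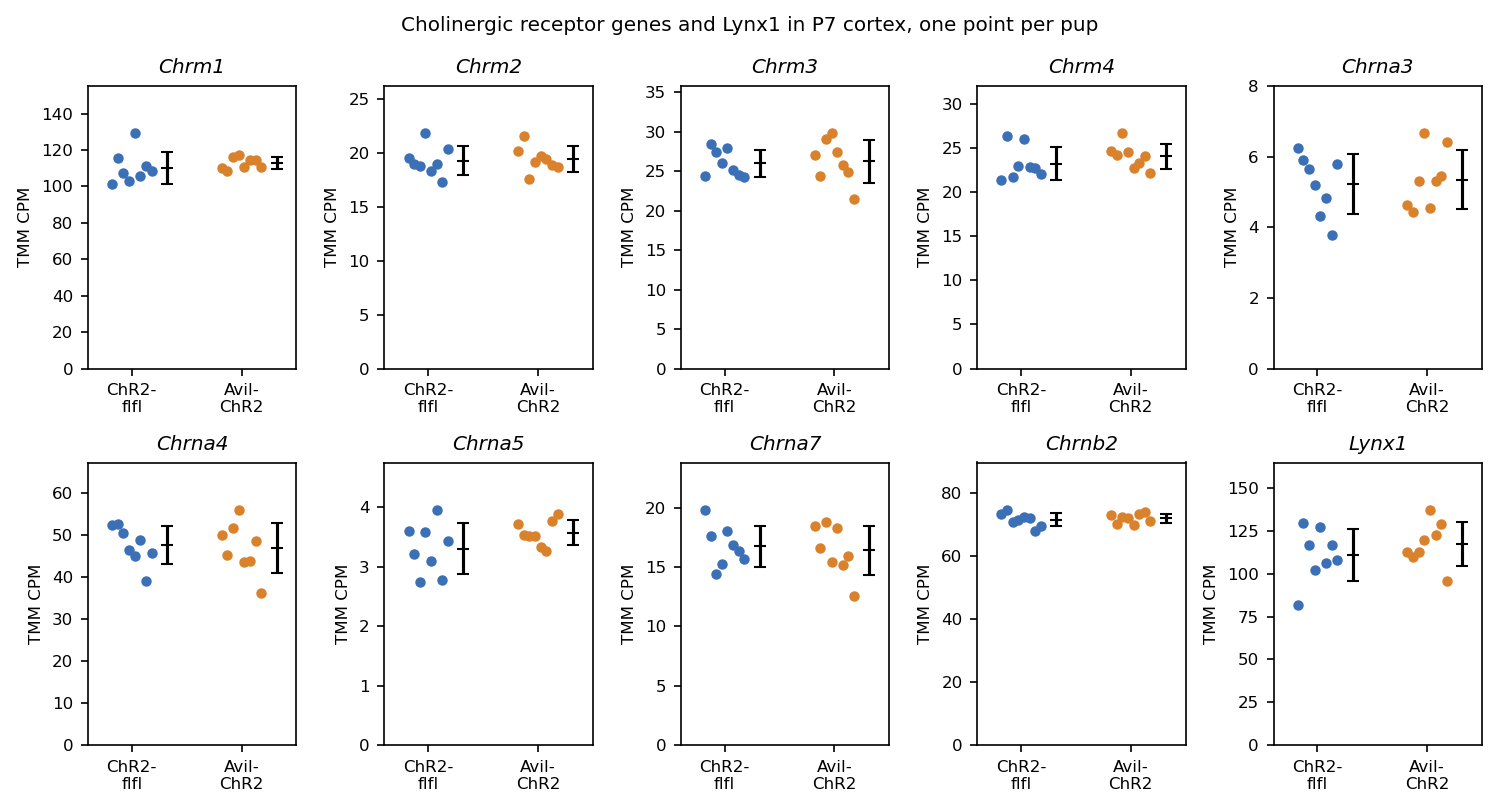
Each panel plots the TMM-normalized CPM of 1 gene (y axis, starting at 0) for the 8 ChR2-flfl pups in blue and the 8 Avil-ChR2 pups in orange, with 1 point per pup and the mean ± SD in black. The genotypes overlap in all 10 panels, the points of Chrnb2 lie between 68.2 and 74.8 CPM, and those of Lynx1 between 81.6 and 137 CPM.

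Per transcript length, Lynx1 stood highest. CPM was divided by the length of the longest annotated transcript, and over all 16 pups this gave 28.4 ± 3.49 CPM per kb (mean ± SD) for Lynx1, 17.8 ± 1.05 for Chrm1 and 16.4 ± 1.15 for Chrm4. Chrnb2 and Chrna4 followed at 11.2 ± 0.272 and 10.4 ± 1.13 CPM per kb, then Chrm3 and Chrna7 at 6.02 ± 0.503 and 5.90 ± 0.663, and Chrm2 at 3.41 ± 0.218. Chrna5 and Chrna3 were lowest at 1.41 ± 0.144 and 1.21 ± 0.188 CPM per kb. Not all neighbors in this order were apart.

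The ranges over the pups overlapped for Lynx1 with Chrm1, Chrm1 with Chrm4, Chrnb2 with Chrna4, Chrm3 with Chrna7, and Chrna5 with Chrna3. Within a pup, Lynx1 was above Chrm1 in 16 of 16 pups, Chrm1 above Chrm4 in 15, Chrnb2 above Chrna4 in 14 and Chrna5 above Chrna3 in 13, while Chrm3 was above Chrna7 in 9 only. Chrm4 against Chrnb2, Chrna4 against Chrm3, Chrna7 against Chrm2 and Chrm2 against Chrna5 did not overlap. The order depends on the lengths. The annotated transcript of Chrm4 has 1440 bp and hardly more than its coding sequence of 1437 bp, so that its level per length is an upper estimate, and the longest transcript of Chrna7 has no coding sequence. With the merged exons of all transcripts Chrna4 (9.42 CPM per kb) stood above Chrnb2 (8.58), and the other 8 members kept their ranks.

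**Figure D2:**
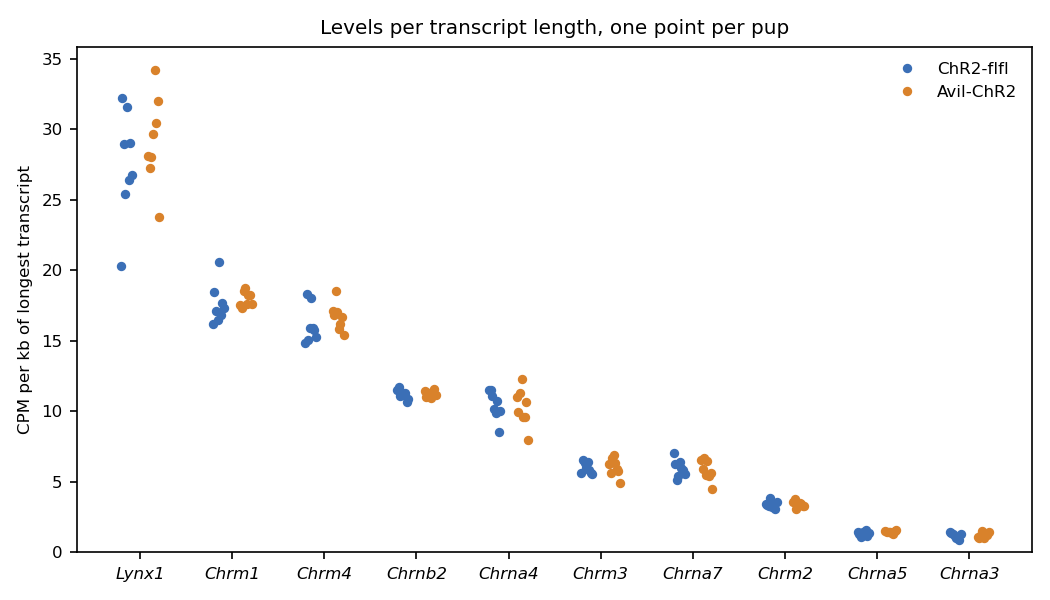
CPM per kb of the longest annotated transcript (y axis, starting at 0) is plotted for each gene in falling order of its mean, with 1 point per pup, ChR2-flfl in blue and Avil-ChR2 in orange. Lynx1 lies between 20.3 and 34.2 CPM per kb, Chrm1 and Chrm4 between 14.8 and 20.6, and Chrna5 and Chrna3 below 1.62.

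Summed over the class, muscarinic receptors exceeded nicotinic subunits in every pup. The 4 muscarinic members summed to 43.1 ± 2.82 CPM per kb in ChR2-flfl and 44.2 ± 1.72 in Avil-ChR2 pups, and the 5 nicotinic members to 30.1 ± 1.83 and 30.1 ± 1.84 CPM per kb (mean ± SD, n = 8). The muscarinic sum was 1.43-fold of the nicotinic sum in ChR2-flfl and 1.47-fold in Avil-ChR2 pups, and single pups ranged from 1.22-fold to 1.62-fold. On the log2 scale the ratio was 0.52 ± 0.12 in ChR2-flfl and 0.56 ± 0.04 in Avil-ChR2 pups, which differ by less than the spread of the controls. As these are sums over chosen genes, no test was run.

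The direction of the class comparison depends on how length enters. Under division by the longest transcript it rests on Chrm4, whose annotated transcript is short. Without Chrm4 the log2 ratio was -0.16 ± 0.12 in ChR2-flfl and -0.13 ± 0.05 in Avil-ChR2 pups, and it was likewise below 0 when CPM was divided by the genomic span of the genes (-0.19 and -0.16). With merged exons it was 0.77 and 0.81, and without any division by length 0.31 and 0.34, with every pup at 1.07-fold or more. Moreover, a muscarinic receptor is 1 protein whereas a nicotinic receptor takes 5 subunits, so that the sums do not count receptors.

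Within the muscarinic class, Chrm1 made up 40.8% ± 1.23 of the summed CPM per kb in ChR2-flfl and 40.7% ± 1.15 in Avil-ChR2 pups. Chrm4 made up 37.4% ± 0.934 and 37.8% ± 1.03, Chrm3 13.9% ± 0.587 and 13.7% ± 0.990, and Chrm2 7.91% ± 0.836 and 7.76% ± 0.622. The share of Chrm4 is an upper estimate because of its short annotated transcript, and the other muscarinic shares depend on it. Within the nicotinic class, Chrnb2 held 37.2% ± 1.32 and 37.6% ± 2.22, and Chrna4 34.6% ± 1.71 and 34.1% ± 2.48. Chrna7 held 19.8% ± 1.58 and 19.4% ± 1.89, whereas Chrna5 and Chrna3 held at most 5.97% and 5.53% in any pup. The Chrna4 to Chrnb2 ratio per length was 0.931 ± 0.0690 in ChR2-flfl and 0.914 ± 0.113 in Avil-ChR2 pups, with single pups between 0.712 and 1.09. The shares of both genotypes differed by less than 1 SD for each of the 9 receptor genes.

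**Figure D3:**
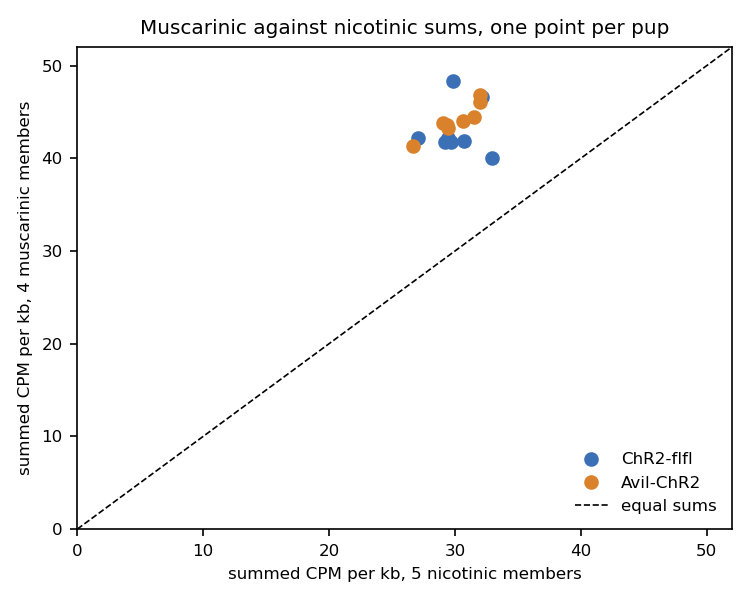
For each pup, the summed CPM per kb of the 4 muscarinic members (y axis) is plotted against that of the 5 nicotinic members (x axis), both axes starting at 0, with ChR2-flfl in blue, Avil-ChR2 in orange and equality as a dashed line. All 16 pups lie above the line, with muscarinic sums of 40.1 to 48.4 and nicotinic sums of 26.6 to 32.9 CPM per kb.

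The genotypes were then compared gene by gene, to see if receptor expression differed between pups with and without a light-sensitive channel in their sensory neurons. No member passed the test for a difference between Avil-ChR2 and ChR2-flfl pups, and the intervals bound how large a difference could have been. With limma across all 21183 genes, 0 of 10 members passed an adjusted p of 0.05, as compared with 0.00944% of all genes, and 0 of 10 passed an unadjusted p of 0.05, as compared with 5.41%. The adjusted p-values lay between 0.945 and 0.995. The groups overlapped for each member, and 0.0283% of all genes did not overlap. Of the members, 8 were higher and 2 were lower in Avil-ChR2 pups, and the median of their log2 differences was 0.024 as compared with 0.0020 for all genes (0.035 and 0.051 for the median size without the sign).

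The muscarinic receptors had the narrower intervals. The log2 difference (Avil-ChR2 minus ChR2-flfl, SE in parentheses) was 0.036 (0.040) for Chrm1, with a 95% interval of -3.20% to 8.54% on the linear scale and an exact permutation p of 0.429 (two-sided, n = 8 per genotype). It was 0.012 (0.047) for Chrm2 with an interval of -5.81% to 7.88% and an exact p of 0.807, and 0.0095 (0.058) for Chrm3 with an interval of -7.43% to 9.46% and an exact p of 0.883. For Chrm4 it was 0.051 (0.048), the interval reached from -3.32% to 11.0%, and the exact p was 0.314. Hence a rise of more than 11.0% and a fall beyond -7.43% lay outside the intervals of all 4 muscarinic receptors. Without ChR2-flfl replicate 5, the pup with the highest Chrm1, the difference of Chrm1 was 0.069 with an unadjusted limma p of 0.029.

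The nicotinic subunits were less tightly bounded, apart from Chrnb2. Chrnb2 had a log2 difference of 0.0087 (SE 0.024), with an interval of -2.79% to 4.11% and an exact permutation p of 0.637, the narrowest of the members. Chrna4 had -0.024 (0.074) with an interval of -11.6% to 9.45% and an exact p of 0.781, and Chrna7 -0.034 (0.077) with -12.6% to 9.16% and an exact p of 0.702. Chrna3 had 0.039 (0.11), and its interval of -12.1% to 20.0% was the widest, with an exact p of 0.744.

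Chrna5 had the largest difference of the members, 0.12 (0.079) on the log2 scale, with an interval of -3.07% to 21.9% and an exact permutation p of 0.122 (n = 8 per genotype). It was above the ChR2-flfl mean in 7 of 8 Avil-ChR2 pups, all of which lay within the range of the controls. Lynx1 had 0.086 (0.081) with an interval of -5.58% to 19.3% and an exact p of 0.386, and it exceeded the mean of the controls in 6 of 8 pups. An increase of 19.3% was within the intervals of Chrna3, Chrna5 and Lynx1.

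**Figure D4:**
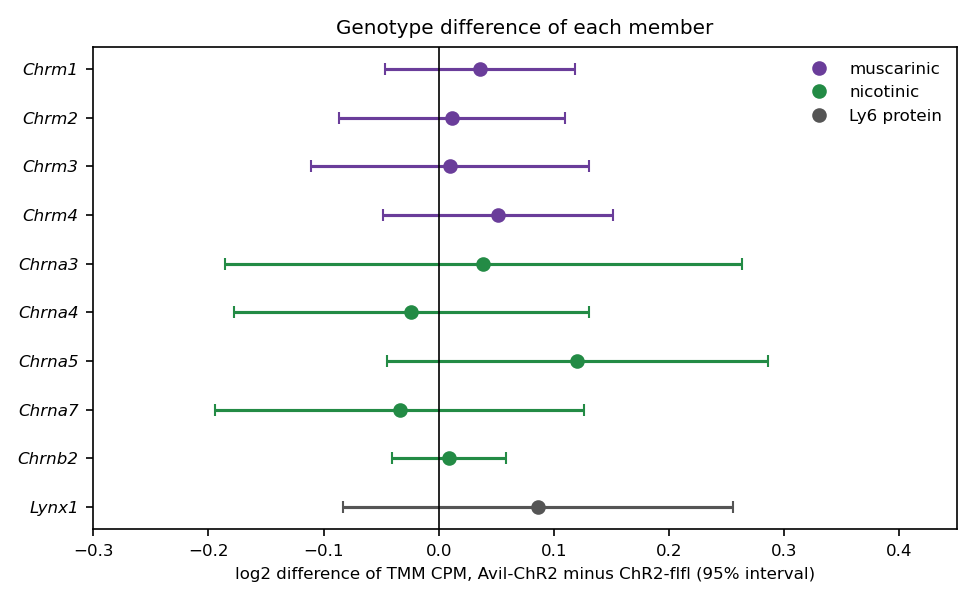
Points show the log2 difference of TMM CPM between Avil-ChR2 and ChR2-flfl pups from limma (x axis, n = 8 per genotype) and bars the 95% interval, for muscarinic receptors in purple, nicotinic subunits in green and Lynx1 in grey. All 10 intervals include 0, Chrnb2 has the narrowest (-0.041 to 0.058) and Chrna3 the widest (-0.19 to 0.26).

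The small differences changed between the runs of pup numbers. The log2 difference in the first and second run was, in this order, 0.082 and -0.011 for Chrm1, 0.12 and -0.018 for Chrm4, -0.14 and 0.22 for Chrna3, and 0.054 and -0.12 for Chrna7. The sign also differed between the runs for Chrm2, Chrm3, Chrna4 and Chrnb2. It was the same for Chrna5, with 0.13 and 0.11, and for Lynx1, with 0.10 and 0.071. No member had an unadjusted p below 0.05 in either run.

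No member passed a test of whether the genotype difference depended on sex, when the sexes of the labels were used. The labels give 5 females and 3 males among Avil-ChR2 pups, and 4 females and 4 males among ChR2-flfl pups. In a limma model with an interaction of genotype and sex, 0 of 10 members had an unadjusted p under 0.05 (4.31% of all genes), and 0 genes passed the adjustment. With the sexes of the supplementary table, Chrna4 had an interaction of 0.30 with an unadjusted p of 0.041 and an adjusted limma p of 0.799, while 6.23% of all genes had an unadjusted p under 0.05. Its difference was then -0.18 in females and 0.13 in males. The sources disagree on 1 pup, Avil-ChR2 replicate 4, which had the highest Chrna4 of all pups. Ddx3y of this pup, at 54.7 CPM, lay within the range of the males and far above the females, at 2.57 CPM or less. Its RNA thus goes with the male sex in the supplementary table, and not with the label.

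Between pups, 1 pair of members passed a test for varying together, and not under all settings. Pearson correlations of the log2 values, with the genotype means removed, were positive for 29 of the 45 pairs of members over 16 pups. The share of positive pairs among all genes was not determined. The pair with the closest relation was Chrm1 and Chrm4, with r = 0.72 (permutation p = 0.00109, adjusted p = 0.0491 over 45 pairs) and a Spearman rho of 0.59 (permutation p = 0.0176, adjusted p = 0.210). It was the only pair that passed the adjustment, and after removal of the length slope, the slope of the log2 values of a pup on log2 genomic span, r was 0.62 (adjusted permutation p = 0.162) and no pair passed. Chrm4 itself correlated with this slope at -0.62. Without the 2 pups farthest from the median of Chrm1, r was 0.51 and the pair did not pass, so that the relation rests in part on those pups, and within the runs of pup numbers r was 0.81 and 0.91. Chrm1 couples to Gq and Chrm4 to Gi proteins.

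Chrna4 rose and fell with genes of layer 6 and subplate neurons, the deepest neurons of the cortex, of which the subplate is a transient population. The correlations with marker lists described from here on were chosen after the data were seen. The share of all genes that follow a marker sum as closely was not determined, so the values do not show whether Chrna4 stands out. The 6 markers (Foxp2, Tle4, Syt6, Ctgf, Nxph4 and Cplx3) summed to 115, 185 and 221 CPM in the lowest, median and highest ChR2-flfl pup and to 97.1, 165 and 227 CPM in Avil-ChR2 pups, so that the sum was spread widely between pups of either genotype. Over 16 pups, with genotype means removed, Chrna4 correlated with this sum at r = 0.90 (permutation p = 2e-05, adjusted p = 4e-04 over 40 relations) and rho = 0.86 (permutation p = 7e-05, adjusted p = 0.0014). Without the 2 pups farthest from the median r was 0.75, and it was 0.58 in the first and 0.93 in the second run of pup numbers. Both measures spanned higher values in the first run, at 168 to 227 CPM for the sum and 45.4 to 56.2 CPM for Chrna4. In the second run they were at 97.1 to 209 and 36.3 to 48.9 CPM. The permutations shuffled pups across the runs, here and for the lists below. These p-values therefore do not separate a shift between the runs from a relation within them.

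Each of the 6 markers followed Chrna4, with r between 0.75 for Foxp2 and 0.92 for Syt6. The pups with the smallest marker sums, Avil-ChR2 replicate 8 and ChR2-flfl replicate 7, also had the lowest Chrna4 of their genotype, 36.3 and 39.1 CPM. Chrna5, which is known from layer 6 pyramidal cells, had r between 0.09 and 0.30 with the same markers. Its reads were few, and in Avil-ChR2 pups its counting error of 7.59% exceeded its coefficient of variation of 5.96%. A low r therefore does not tell whether Chrna5 follows these markers. When the marker sum was entered as a covariate, the genotype difference of Chrna4 was 0.015 with an SE of 0.037, as compared with -0.024 and 0.074 without it, and still did not pass the test.

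**Figure D5:**
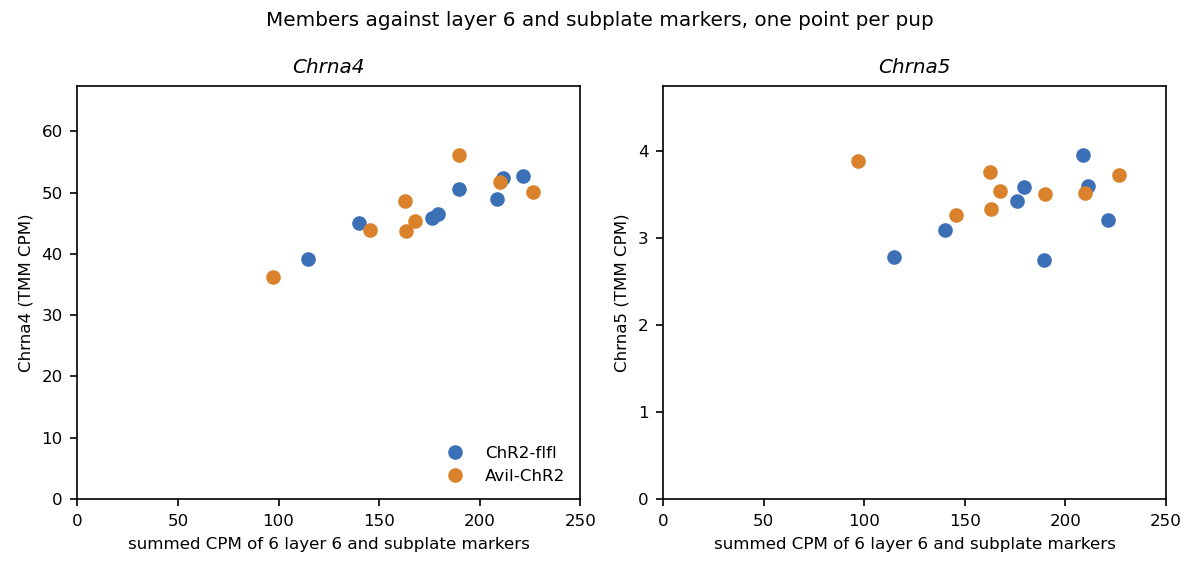
CPM of Chrna4 (left) and Chrna5 (right) on the y axis is plotted against the summed CPM of the 6 layer 6 and subplate markers on the x axis, with all axes starting at 0, 1 point per pup, ChR2-flfl in blue and Avil-ChR2 in orange. The marker sum spans 97.1 to 227 CPM, and Chrna4, at 36.3 to 56.2 CPM, rises with it. Chrna5 lies between 2.75 and 3.96 CPM.

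Other marker lists moved with Chrna4 as well. With 5 genes listed as markers of striatal neurons (Drd1, Drd2, Adora2a, Ppp1r1b and Rgs9) r was 0.87 (adjusted permutation p = 4e-04) and rho was 0.88 (adjusted permutation p = 4e-04). Without the 2 farthest pups r was 0.86, and it was 0.64 and 0.85 in the runs. With 6 interneuron markers (Gad1, Gad2, Lhx6, Sst, Npy, Adarb2) r was 0.82 (adjusted permutation p = 0.0016), rho was 0.76 (adjusted permutation p = 0.0086), r without the 2 farthest pups 0.73, and 0.87 and 0.69 in the runs. With 6 thalamus markers (Tcf7l2, Gbx2, Prkcd, Lef1, Slc17a6, Rora) the relation was inverse, with r = -0.67 (adjusted permutation p = 0.0311), rho = -0.77 (adjusted permutation p = 0.0086), r = -0.54 without the 2 farthest pups, and -0.60 and -0.42 in the runs. Over all pups, the 5 striatal markers summed to 70.5 to 108 CPM, interneuron markers to 290 to 357 CPM and thalamus markers to 117 to 156 CPM, and Gbx2 of the thalamus list was too low to be tested. Whether the RNA of the striatal and thalamus lists came from outside the cortex or from cortical cells was not tested. The part of the cells of these lists in the spread of Chrna4 was not tested either.

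Of the other members, Chrm3 followed the interneuron sum at r = 0.78 (adjusted permutation p = 0.0056) and rho = 0.73 (adjusted permutation p = 0.0146), with r = 0.77 without the 2 farthest pups, and 0.84 and 0.59 in the runs. Chrna3 went against the thalamus sum at r = -0.74 (adjusted permutation p = 0.006) and rho = -0.66 (adjusted permutation p = 0.0479), with r = -0.70 without the 2 farthest pups, and -0.68 and -0.77 in the runs. No other relation of the 40 passed the adjustment for Pearson's r, and Lynx1, Chrm1, Chrm2, Chrm4, Chrna5, Chrna7 and Chrnb2 were in none that passed.

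Among further cholinergic genes, those for receptor subunits outside the list were low. Of 44 listed genes, 43 were in the table and 36 passed the filter, of which 16 were higher and 20 lower in Avil-ChR2 pups. The median of their log2 differences was -0.0038. Under an unadjusted p of 0.05, 0 were higher (1.95% of all genes) and 3 were lower (3.46% of all genes), and 0 passed the adjustment. Chrnb1, Chrna2 and Chrna1 had the highest CPM of these receptor subunits, at medians of 1.97, 1.23 and 0.600 CPM in ChR2-flfl and 1.95, 1.29 and 0.462 CPM in Avil-ChR2 pups. Chrna1, the alpha subunit of the muscle receptor, had a log2 difference of -0.49 (SE 0.19) with an unadjusted limma p of 0.018 and an adjusted p of 0.841, at no more than 44 reads in a pup.

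Ache, the enzyme that breaks down acetylcholine, had the highest CPM of the genes of synthesis, transport and breakdown, at medians of 93.0 CPM in ChR2-flfl and 93.3 CPM in Avil-ChR2 pups. For all these further genes CPM was not divided by length, so that their order is one of CPM only. Bche followed at 5.15 and 4.70 CPM, and then, close to each other, the anchoring protein Colq at 1.87 and 2.35 CPM and the choline transporter Slc5a7 at 2.03 and 2.00 CPM. The log2 differences of Ache, Bche and Colq were 0.054, -0.12 and 0.19, none with an unadjusted p under 0.05. Chat was at a median of 0.610 CPM in ChR2-flfl and 0.770 CPM in Avil-ChR2 pups, a log2 difference of 0.24 with an unadjusted limma p of 0.078, an adjusted p of 0.927 and an exact permutation p of 0.041. The difference of Chat was 0.43 in the first run of pup numbers and 0.062 in the second, and 0.18 with the length slope as a covariate. Slc18a3, the vesicular transporter, had no reads in any pup. It lies within the entry of Chat, so that its reads may stand under Chat.

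Of the Ly6 proteins and chaperones, relatives of Lynx1 in structure or function, Ly6h, Ly6e and Lypd6 had the highest mean CPM over all pups, with medians of 85.2, 70.4 and 54.0 CPM in ChR2-flfl and 93.4, 72.1 and 55.3 CPM in Avil-ChR2 pups. Lypd1 was close to Lypd6, at medians of 55.0 and 53.1 CPM. The differences of Ly6h, Ly6e and Lypd6 were 0.086, 0.059 and 0.012 and did not pass the test. Among genes downstream of muscarinic receptors, Gnao1 and Gnaq had the highest CPM of those named, at medians of 1141 and 602 CPM in ChR2-flfl and 1152 and 595 CPM in Avil-ChR2 pups, with differences of 0.017 and -0.015. Next, 2 potassium channel genes of this group had an unadjusted p under 0.05. Kcnj6, a subunit of inwardly rectifying channels opened by Gi and Go proteins, had a log2 difference of -0.15 (SE 0.059, unadjusted limma p = 0.019, exact permutation p = 0.039), and Kcnq3, a subunit of M-type channels, one of -0.092 (SE 0.043, unadjusted limma p = 0.046, exact permutation p = 0.073). Neither passed the adjustment, with adjusted p-values of 0.841 and 0.911. With the length slope as a covariate the differences were -0.10 for Kcnj6 and -0.049 for Kcnq3, and neither then had an unadjusted p under 0.05.

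Overlapping annotation, taken from GENCODE, touches few members. Exons of Chrnb2 share 1365 bp with exons of Adar on the opposite strand in that annotation. In the gene table the entries barely overlap, as Adar ends at chr3:89753455 and Chrnb2 starts at chr3:89753448. Adar was at 171 CPM in the median ChR2-flfl pup. Chrm2 shares 142 bp with the lincRNA gene 9330158H04Rik, which was at 0.687 CPM, and Chrm1 329 bp with Gm22820. The study used a stranded kit, but whether the counting used the strand is not stated. Xist had no reads in 7 of 8 pups of each genotype, whereas Tsix on its opposite strand reached 932 CPM in ChR2-flfl and 800 CPM in Avil-ChR2 pups. Hence the reads of overlapping genes may stand under either name. How far this touches the level of Chrnb2 was not tested.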

How the data were processed

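Cortices of 16 pups were analyzed by RNA sequencing, 8 Avil-ChR2 and 8 ChR2-flfl, grouped by the sample labels. After adapter trimming, the authors mapped reads that were 50 bp or longer with SeqMan NGen (mm10, GRCm38), summed them per gene in ArrayStar and normalized them as TMM with edgeR, and the deposited values are CPM on a linear scale, written with a decimal comma and with 1 column per pup (other columns hold gene annotation and were used for positions). All 16 columns of values were used. The values were whole multiples of that of 1 read in each pup (100% of values of up to 20000 reads within 0.05), from which reads per gene and the depth of 30549126 to 48711134 reads per pup were obtained. Reads carried no molecular identifiers, hence counting errors cover counting only.

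CPM was log2 transformed as such, values missing or below -5 were set to -5 (4432 values), and genes above -5 in at least 12 of 16 pups were kept (21183). Genotypes were compared with limma 3.58.1 in R 4.3.3 with an intensity trend and Benjamini-Hochberg adjustment over all these genes, without covariates. Single genes were also compared with two-sided exact permutation tests over all 12870 splits of the pups, with 0.00016 as the smallest p. Correlations used 100000 permutations of the pups across both runs of pup numbers, with scipy 1.17.1 in Python 3.11.15. Lengths came from the GENCODE annotation of GRCm38, and promoters from RefSeq. The fit was tested on simulated data.

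The members and all gene lists were chosen with earlier results of these data known. All members were named, and of the other cholinergic genes those with an unadjusted p under 0.05 and the 3 with the highest CPM per role, besides genes for checks of labels and overlaps and the marker lists. Labels name pups as separate animals. The alternatives were other normalizations, pseudocounts, filters and lengths, covariates (sex, length slope, run of pup numbers, replicate number as a block), and the omission of each pup. Voom on the recovered reads, the sexes of the supplementary table and the layer 6 marker sum as covariates, the class ratio without Chrm4, a list of 5 striatal markers and the correlations with marker lists were added after the data were seen. Some genes that these rules would name, and the level of a marker list that holds such genes, are not reported here.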

Additional observations from a re-analysis of the deposited data

Results flagged for a closer look

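Among 60 groups of 8 pups (the members, the other named genes, the depth, the class ratio and the marker sums), 3 had a pup that stood apart from the others of its genotype by a test of gaps (Dixon), which chance alone gives in about 5% of groups. No member was among them. ChR2-flfl replicate 3 had 30549126 reads, whereas the next library of its genotype had 48162598. Avil-ChR2 replicate 4 had 47791532 reads with the next at 48315779, a small difference in depth. The thalamus markers summed to 155.8 CPM in ChR2-flfl replicate 7, and to 138.9 CPM in the pup next to it. The same pup had the lowest Chrm2, Chrna3, Chrna4 and Chrnb2 of its genotype.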

How the results depend on the processing

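Of 300 refits of the members under 30 alternatives each, 0 had an adjusted p under 0.05 (lowest 0.643) and 272 kept the direction. An edgeR test and a DESeq2 test on recovered reads were planned but not run, and voom on these reads was run in their place. In pups 26 to 33 alone the sign was reversed for Chrm2 (-0.013), Chrna3 (-0.14), Chrna4 (0.0062), Chrna7 (0.054), Chrnb2 (-0.014) and Lypd6 (-0.051), and in pups 35 to 42 alone for Chrm1 (-0.011), Chrm3 (-0.035), Chrm4 (-0.018), Chrna2 (-0.019) and Bche (0.0028). With the length slope of each pup as a covariate (log2 value on log2 genomic span) it was reversed for Chrm3 (-0.029), Chrm4 (-0.00082), Chrna3 (-0.013), Chrnb2 (-0.0046), Ache (-0.016) and Ly6h (-0.060), and with the layer 6 sum for Chrna4 (0.015). The cause of these changes was not tested. With 1 pup left out, differences ranged from -0.011 to 0.038 for Chrm2 (negative without ChR2-flfl replicate 7 or Avil-ChR2 replicate 2), -0.018 to 0.050 for Chrm3 (negative without ChR2-flfl replicates 1, 7 or 8 or Avil-ChR2 replicates 3, 4 or 5), -0.025 to 0.078 for Chrna3 (negative without ChR2-flfl replicate 7 or Avil-ChR2 replicates 4 or 8), -0.064 to 0.028 for Chrna4 (positive without Avil-ChR2 replicate 8), -0.065 to 0.019 for Chrna7 (positive without ChR2-flfl replicate 1 or Avil-ChR2 replicate 8), -0.0015 to 0.018 for Chrnb2 (negative without ChR2-flfl replicate 7) and -0.015 to 0.038 for Lypd6 (negative without ChR2-flfl replicates 5 or 7). Members under an unadjusted p of 0.05 then numbered 0 to 1, the 1 being Chrm1 without ChR2-flfl replicate 5, and other cholinergic genes 2 to 5, with 5 without Avil-ChR2 replicate 6. Their number was 1 in pups 26 to 33 alone, as compared with 3. The sexes of the supplementary table gave 1 member with an interaction in place of 0. The log2 class ratio over all pups was 0.79 with merged exons, -0.18 with genomic span, 0.32 without lengths and -0.14 without Chrm4, as compared with 0.54. With genomic span 5 of 10 members kept their rank, and with each pup left out all 10 did. After removal of the length slope, or without the 2 farthest pups, 0 pairs of members passed. With the replicate number as a block, 0 members passed an adjusted or unadjusted p of 0.05 and 3 other cholinergic genes passed the latter, as without it. Deviations of pups with the same number correlated at -0.07 to 0.13, and 1 of 8 numbers correlated best with itself, so that the numbers do not pair the pups. Depth limited Chrna5 and Chrna1, whose counts were small.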
